A study of Mus musculus with 11 samples.

Results

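Insulin and insulin-like growth factor (IGF) signaling was followed through 10 genes in embryonic mouse hearts with and without Pde2A, a phosphodiesterase that breaks down cAMP and cGMP. The genes are the ligands Igf1 and Igf2, the noncoding RNA H19 that is transcribed beside Igf2, the binding proteins Igfbp3 and Igfbp5, the receptors Igf1r, Igf2r and Insr, and the adaptors Irs1 and Irs2. They were chosen by name with earlier results of these data known, as were the gene lists used further below. They are 10 of the 55487 genes in the count tables, and all 10 were among the 24177 genes with enough reads to be tested. RNA came from whole hearts collected at E14.5, with 1 library per heart from 5 Pde2A-/- and 6 Pde2A+/+ embryos. Both genotypes belong to the line B6; 129P2-Pde2A<tm1Dgen>, came from crosses between Pde2A+/- parents and received no drug. The targeted allele is carried by every cell of the knockout embryo and not by the heart alone. Embryos of both sexes were used, and the sex and litter of single hearts are not given in the sources used here.

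IGF-I and IGF-II are secreted growth factors that act through the tyrosine kinase receptor Igf1r, and IGF-II also acts through the insulin receptor. The active receptors dock the adaptors Irs1 and Irs2, which start the PI3K-AKT-mTOR and the RAS-ERK cascades, while Igf2r, the mannose 6-phosphate receptor, carries IGF-II to lysosomes, where it is broken down. Binding proteins hold the ligands in the extracellular fluid and matrix. In the mouse embryo Igf2 is expressed from the paternal copy, and H19 and Igf2r from the maternal copy. In the developing heart IGF-II from the epicardium and endocardium is known for its effect on cardiomyocyte proliferation.

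Counts on the sense strand summed to between 35865537 and 42835382 per library, and Pearson's r of log2 values between hearts of the same genotype was 0.983 to 0.992 across genes. Pde2a itself (chromosome 7, 101421691 to 101512827) had 0 to 2 counts per library and 7 in all, wild types included. It shares 3955 of its 6149 exon bases, 64.3%, with Gm45837, a gene of the same strand. A read on both is counted on neither, if the reads were counted on GENCODE M21 exons, which is inferred from the gene identifiers. Why the bases that are not shared also gave so few counts was not tested. The count of Pde2a was taken as no measure of its expression and gave no check of the labels. Of 12 cardiomyocyte genes, 12 had a mean of at least 1 CPM (counts scaled to a common library size) in wild types, and their summed level was 39139 to 45561 CPM in Pde2A-/- and 38619 to 51105 CPM in Pde2A+/+ hearts. Hypoxia-responsive genes were higher in knockouts in 12 of 13 cases and macrophage genes in 9 of 10, against 8.93% of all genes tested. Wild-type replicates 7 and 11 held 76.7 and 18.3 CPM of lung and thymus genes, where the other hearts held 1.8 to 4.3 CPM.

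Of the 10 genes, 4 were higher in Pde2A-/- hearts (Igf2r, Insr, Irs2 and Igfbp3), 0 were lower, and 6 (Igf1, Igf2, H19, Igf1r, Irs1 and Igfbp5) did not pass the test. Calls rest on the quasi-likelihood test of edgeR and a threshold of 0.05 on p-values adjusted by Benjamini-Hochberg over all 24177 genes, at which 8.93% of these genes were called higher and 5.67% lower. Among the 6723 genes that averaged 30 CPM or more, a level that all 10 genes reach, 14.6% were higher and 11.4% lower. Such shares stand as background and are no test of genes chosen with earlier results known. The changes were modest in size. The fitted fold change of the 4 genes was 1.37 for Igf2r, 1.46 for Insr, 1.61 for Igfbp3 and 1.73 for Irs2, and 0 of the 10 reached a fold change of 2, against 2.21% of all genes that were called higher at that size. At an unadjusted p under 0.05, 7 of the 10 were higher and 0 lower, where 15.6% of all genes tested were higher and 14.9% lower, and 24.5% and 25.0% of those with at least 30 CPM. DESeq2 called 6 of the 10 higher and 0 lower, where it called 16.4% higher and 13.8% lower of the 17013 genes to which it gave an adjusted p, and 20.0% and 19.7% of those with at least 30 CPM. The log2 fold change was above 0 for 9 of the 10, with a median of 0.35, where the median over all genes tested was -0.02 and over the genes with at least 30 CPM it was -0.01. Every Pde2A-/- heart lay above every Pde2A+/+ heart for 2 of the 10, Igf2r and Irs2, as for 5.38% of all genes and 8.39% of those with at least 30 CPM. In whole hearts, fewer cells of a type and less RNA per cell cannot be told apart. With 1 heart left out in turn, between 2 and 6 of the 10 were called, and Igf2r and Irs2 were called each time.

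**Figure D1:**
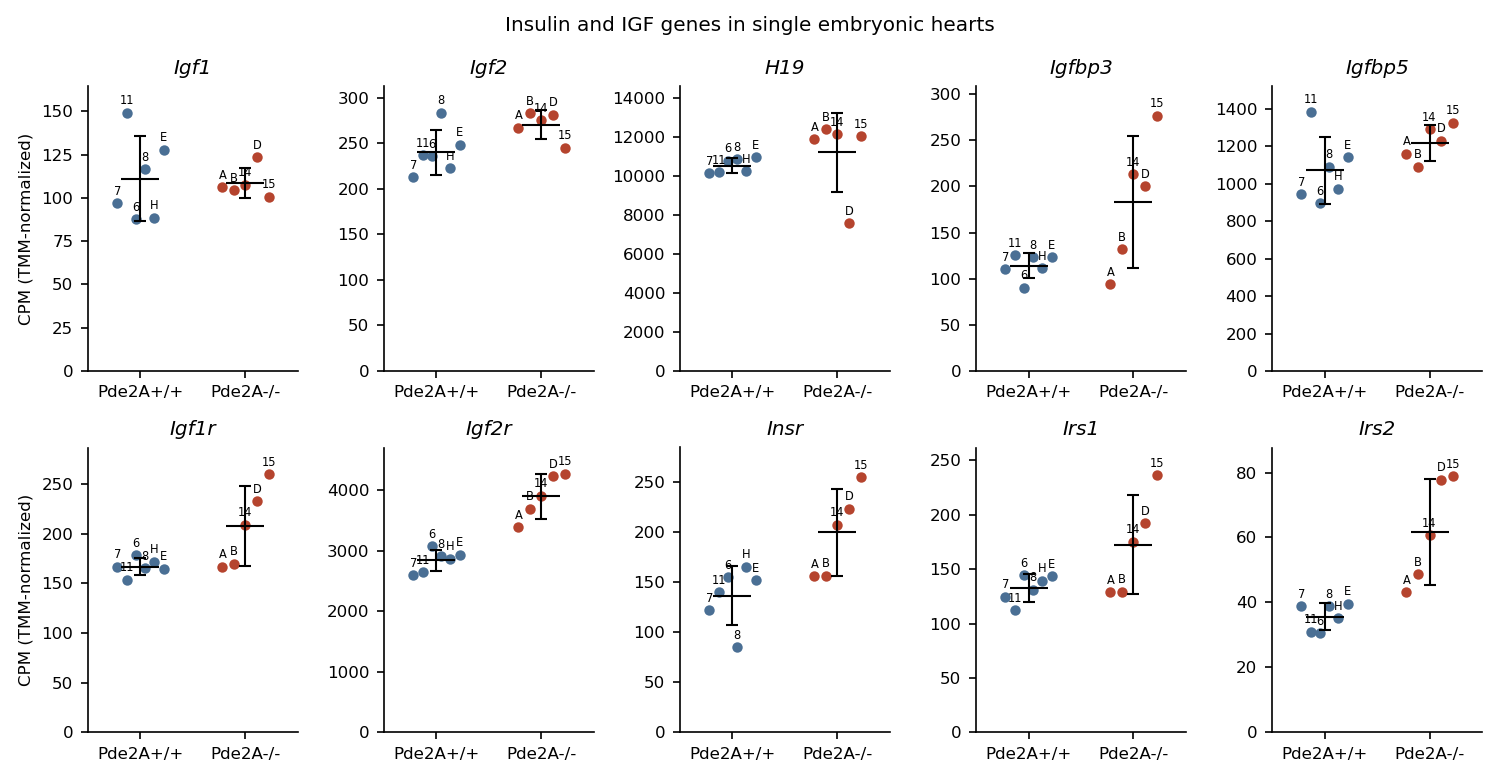
Level of each of the 10 genes in single hearts (y axis, CPM after TMM normalization, from 0), for 6 Pde2A+/+ and 5 Pde2A-/- hearts. Points carry the replicate name, the long line is the mean and the bars are 1 SD. The genotypes do not overlap for Igf2r and Irs2, and knockout replicates A and B lie at or near the wild-type hearts for Igf1r, Insr, Irs1 and Igfbp3.

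The promoters of the genes that rose are printed to show the bases before their RefSeq starts. Windows from RefSeq (GRCm38.p6) were held for 8 of the 10 genes, and not for H19 and Insr. The 250 bases before the annotated start of Igf2r (chr17:12769707-12769956, minus strand), Irs2 (chr8:11008930-11009179, minus strand) and Igfbp3 (chr11:7213924-7214173, minus strand) are given 5′ to 3′ on the transcribed strand. The window of Irs1 (chr1:82291440-82291689, minus strand) is printed beside that of Irs2, its fellow adaptor, though Irs1 did not pass the test. The GENCODE M21 genes begin at 12769664 (Igf2r), 11008458 (Irs2) and 82291416 (Irs1) on this strand, so these windows do not adjoin them. Capitals mark CACGTG, an E-box that contains the hypoxia response core ACGTG on both strands.
Igf2r: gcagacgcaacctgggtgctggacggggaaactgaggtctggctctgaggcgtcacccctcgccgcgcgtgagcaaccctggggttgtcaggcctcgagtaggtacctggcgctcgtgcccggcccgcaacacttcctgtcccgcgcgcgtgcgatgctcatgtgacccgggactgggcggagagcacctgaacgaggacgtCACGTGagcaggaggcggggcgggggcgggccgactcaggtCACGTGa
Irs2: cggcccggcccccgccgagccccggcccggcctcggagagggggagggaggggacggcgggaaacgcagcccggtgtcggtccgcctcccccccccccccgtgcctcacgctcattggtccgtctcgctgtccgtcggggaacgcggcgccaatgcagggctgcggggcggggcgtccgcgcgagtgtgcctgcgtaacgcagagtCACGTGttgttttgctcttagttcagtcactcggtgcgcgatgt
Irs1: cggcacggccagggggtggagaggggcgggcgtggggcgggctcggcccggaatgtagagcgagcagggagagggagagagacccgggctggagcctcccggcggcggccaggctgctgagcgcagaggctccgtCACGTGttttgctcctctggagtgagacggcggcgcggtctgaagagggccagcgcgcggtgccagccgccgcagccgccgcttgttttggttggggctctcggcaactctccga
Igfbp3: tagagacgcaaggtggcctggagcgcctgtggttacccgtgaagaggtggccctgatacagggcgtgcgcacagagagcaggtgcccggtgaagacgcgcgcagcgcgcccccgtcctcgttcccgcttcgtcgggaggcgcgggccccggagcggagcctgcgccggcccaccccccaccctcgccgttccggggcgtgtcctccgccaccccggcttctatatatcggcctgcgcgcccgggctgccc
The 8 genes have 11 windows, 4 of them of Igf2 and 1 of each other gene. CACGTG stands in a window of 3 of the 8 genes, and in a window of 6.86% of the 27025 genes in the table. Igf2r has it at 48 to 43 and at 7 to 2 bases before the start, Irs2 at 44 to 39 and Irs1 at 115 to 110. The core ACGTG, which every CACGTG holds, was found in 4 of the 8 genes, with 1 of the 4 Igf2 windows, and in 18.5% of all genes. TGACG, the short form of the cAMP response element, was found in Igf2, Igf2r and Irs1, 3 of the 8, again in 1 of the 4 Igf2 windows, and in 19.8% of all genes, and it shares bases with CACGTG in Igf2r and Irs1. The full element TGACGTCA was in 0 of the 8 and in 1.77% of all genes, and the FOXO motif GTAAACA in 0 of the 8 and in 3.54%. All motifs were searched on both strands after the values of the genes had been seen, and a match is a string of letters, with binding not measured here. The window of Igfbp3 held none of the 5 strings.

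Among the ligands, neither IGF gene passed the test. Igf1, which encodes IGF-I (ENSMUSG00000020053, chromosome 10, 87858265 to 87937042), had 106, 105, 108, 124 and 101 CPM in Pde2A-/- replicates A, B, 14, D and 15, and a lowest, median and highest level of 87.6, 107 and 149 CPM in Pde2A+/+ hearts. The knockout hearts all fell inside the wild-type range. The log2 fold change was -0.03 ± 0.13 (SE, n = 5 and 6 hearts), with an adjusted p of 0.89, and its sign turned without wild-type replicate 11 (0.07) or E (0.01). Replicate 11 was the wild type with the highest Igf1 and the highest Igfbp5, and it also had the highest summed level of 10 fibroblast and valve mesenchyme genes among wild types, 11586 CPM, where the other wild types had 6605 to 10355 CPM and the knockouts 7663 to 12087 CPM. The part of these cells in the Igf1 level was not tested.

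Igf2, the IGF-II gene (ENSMUSG00000048583, chromosome 7, 142650766 to 142666816), had 267, 283, 276, 281 and 245 CPM in Pde2A-/- replicates A, B, 14, D and 15. The wild-type hearts had a lowest, median and highest level of 213, 237 and 283 CPM. All 5 knockouts lay above the wild-type median and none above the highest wild type, replicate 8. This gave a log2 fold change of 0.17 ± 0.07 (SE) with an adjusted p of 0.11, and without wild-type replicate 8 it was 0.23 with an adjusted p of 0.025. These reads may come from a fraction of the gene. The annotated gene Gm49394 (ENSMUSG00000115302, chromosome 7, 142650769 to 142669942) lies on the same strand and shares 3596 of the 5723 exon bases of Igf2, 62.8%, including 546 of its 678 coding bases. A read on both genes is counted on neither. If the reads were counted on these GENCODE M21 exons, which is inferred from the gene identifiers in the files, the Igf2 level rests on the 2127 bases outside Gm49394, of which 132 are coding. Gm49394 had 6 to 21 counts per library.

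**Figure D2:**
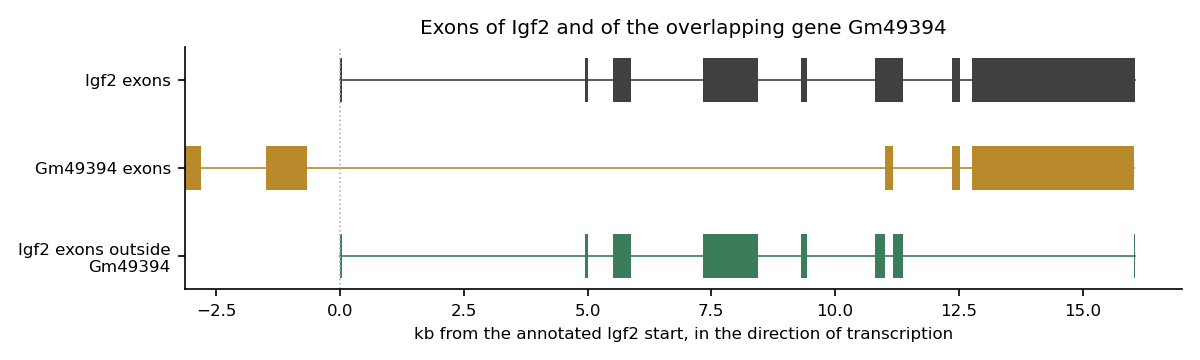
Exons of Igf2, exons of the overlapping gene Gm49394, and the Igf2 exon bases outside Gm49394 on which the Igf2 count rests if the reads were counted on this annotation (x axis, kb from the annotated Igf2 start in the direction of transcription; boxes are exons). The last exon, which is the longest, is shared almost whole, and the bases left are 2127 of 5723.

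H19, a noncoding RNA that is controlled by the same imprinting center as Igf2 (ENSMUSG00000000031, chromosome 7, 142575529 to 142578143), was the most abundant of the 10. It had 11877, 12379, 12139, 7572 and 12017 CPM in Pde2A-/- replicates A, B, 14, D and 15, and a lowest, median and highest level of 10139, 10501 and 10935 CPM in wild types. Of the 5 knockouts, 4 lay above all wild types and replicate D lay below all of them, at 0.72 times the wild-type mean. Over all hearts the log2 fold change was 0.09 ± 0.10 (SE), adjusted p 0.61, and without replicate D it was 0.20, adjusted p 0.019. The SD of H19 was 18.2% of the mean in knockouts and 3.48% in wild types.

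For each Igf2 count, the hearts held 44.5, 43.8, 44.1, 26.9 and 49.1 H19 counts in Pde2A-/- replicates A, B, 14, D and 15, and 38.2 to 47.6, with a median of 44.8, in Pde2A+/+ hearts. Knockout replicate D had the lowest ratio of all 11 hearts, with its Igf2 level at 281 CPM. The mean log2 ratio of Igf2 to H19 was -5.35 ± 0.34 (SD, n = 5) in knockouts and -5.46 ± 0.11 (SD, n = 6) in wild types, a difference of 0.11 with p = 0.62 in an exact two-sided permutation test over 462 splits of the hearts. Without replicate D the difference was -0.04, p = 0.57 by the same exact test. The ratio counts Igf2 on its bases outside Gm49394 and is no ratio of molecules.

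H19 and Igf2 lie 41.1 Mb from Pde2a on the same chromosome. The name of the line gives 129P2 as the source of the targeted allele, and how far this source reaches along the chromosome in the knockout hearts was not tested. Of the 15 tested neighbours within 200 kb of H19 and Igf2, 2 were called, both higher, with a median log2 fold change of -0.07 over the 15. Over all genes tested, 8.93% were called higher and 5.67% lower. Ctsd, the lysosomal protease cathepsin D, had 266 CPM in knockouts and 208 CPM in wild types, a log2 fold change of 0.36 ± 0.05 (SE), adjusted p 0.00057. Tnnt3, a troponin of fast skeletal muscle, had 5.77, 23.7, 8.81, 13.6 and 7.77 CPM in Pde2A-/- replicates A, B, 14, D and 15 against 2.01 to 9.85 CPM in wild types, and the genotypes overlapped. Its log2 fold change was 1.36 ± 0.41 (SE), adjusted p 0.044, and this call was lost in 9 of the 11 fits that left out 1 heart, all but those without knockout A or wild-type 8, with an adjusted p of up to 0.10.

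Of the binding proteins, Igfbp3 rose and Igfbp5 did not pass. Igfbp3 (ENSMUSG00000020427, chromosome 11, 7206086 to 7213923) encodes a carrier of IGF-I and IGF-II. It had 94, 132, 214, 200 and 277 CPM in Pde2A-/- replicates A, B, 14, D and 15, and a lowest, median and highest level of 90.2, 117 and 125 CPM in Pde2A+/+ hearts. Replicate A lay within the wild-type range, B just above it, and 14, D and 15 well above. Igfbp3 had a log2 fold change of 0.68 ± 0.21 (SE), adjusted p 0.047, and the SD was 39.1% of the mean in knockouts and 11.7% in wild types. The call held without knockout A or B and was lost in the other 9 fits that left out 1 heart, those without knockout 14, D or 15 and without any 1 of the 6 wild types, where the log2 fold change was 0.49 to 0.71 and the adjusted p 0.060 to 0.14.

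Igfbp5 (ENSMUSG00000026185, chromosome 1, 72857932 to 72874884), a carrier that also binds extracellular matrix, had 1161, 1092, 1292, 1230 and 1327 CPM in Pde2A-/- replicates A, B, 14, D and 15. Its lowest, median and highest level in wild types was 896, 1033 and 1386 CPM. All 5 knockouts lay above the wild-type median and none above replicate 11, the highest wild type. The log2 fold change was 0.19 ± 0.10 (SE), adjusted p 0.23, and without wild-type replicate 11 it was 0.27, adjusted p 0.036.

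Of the 3 receptors, Igf2r and Insr rose and Igf1r did not pass the threshold. Igf2r (ENSMUSG00000023830, chromosome 17, 12682406 to 12769664), the receptor that removes IGF-II, had 3383, 3692, 3909, 4230 and 4270 CPM in Pde2A-/- replicates A, B, 14, D and 15. In Pde2A+/+ hearts the lowest, median and highest level was 2599, 2889 and 3069 CPM. Every knockout lay above every wild type. Its log2 fold change was 0.46 ± 0.07 (SE) with an adjusted p of 0.00084, and it was 0.43 to 0.51 with any 1 heart left out, with an adjusted p of at most 0.0037.

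Insr, the insulin receptor (ENSMUSG00000005534, chromosome 8, 3122061 to 3279617), had 156, 156, 207, 223 and 255 CPM in Pde2A-/- replicates A, B, 14, D and 15. Wild types had a lowest, median and highest level of 85.1, 146 and 165 CPM. Replicates 14, D and 15 lay above all wild types, A and B lay within their range, and wild-type replicate 8 was the lowest heart. For Insr the log2 fold change was 0.55 ± 0.17 (SE), adjusted p 0.043. The call was lost without knockout 14, D or 15 and without wild-type 7, 11, 6, 8 or E, with a log2 fold change of 0.45 to 0.59 and an adjusted p of 0.055 to 0.12, and with the naming style of the replicates (letter or number) as a covariate, adjusted p 0.051.

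Igf1r (ENSMUSG00000005533, chromosome 7, 67952827 to 68233668), the main signaling receptor for both IGFs, 33.2 Mb from Pde2a, had 167, 170, 209, 233 and 260 CPM in Pde2A-/- replicates A, B, 14, D and 15, and a lowest, median and highest level of 154, 166 and 179 CPM in wild types. Again 14, D and 15 lay above all wild types while A and B lay among them. For Igf1r this gave a log2 fold change of 0.32 ± 0.10 (SE), adjusted p 0.055. It passed the threshold in 4 of the 8 other settings with all hearts. These were DESeq2 (adjusted p 0.020), filterByExpr (0.045), and the naming style (0.038) or Xist above 1 CPM (0.039) as a covariate. Igf1r also passed without knockout A (0.39, adjusted p 0.012) or B (0.38, adjusted p 0.020).

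Of the adaptors, Irs2 had the largest fitted change of the 10 genes. Irs2 (ENSMUSG00000038894, chromosome 8, 10984681 to 11008458) had 43.1, 48.6, 60.7, 77.8 and 78.8 CPM in Pde2A-/- replicates A, B, 14, D and 15, against a lowest, median and highest level of 30.5, 37.0 and 39.6 CPM in wild types. Every knockout lay above every wild type, A and B by little and D and 15 at over 2 times the wild-type mean (2.18 and 2.21). The log2 fold change was 0.79 ± 0.15 (SE), adjusted p 0.0046, and 0.69 to 0.90 with any 1 heart left out, adjusted p at most 0.017.

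Irs1 (ENSMUSG00000055980, chromosome 1, 82233101 to 82291416), which docks to the same receptors, had 129, 129, 175, 192 and 236 CPM in Pde2A-/- replicates A, B, 14, D and 15. The lowest, median and highest level in wild types was 112, 135 and 144 CPM. Replicates A and B lay within the wild-type range and the other 3 knockouts above it. The log2 fold change was 0.38 ± 0.14 (SE), adjusted p 0.086. It passed in DESeq2 (adjusted p 0.038), without knockout A (0.47, adjusted p 0.024) or B (0.47, adjusted p 0.030), and with reads of both strands (0.48, adjusted p 0.049), a count that also takes in reads from Gm9747, an antisense gene over 2822 of the 9144 exon bases.

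The same knockout hearts were high for several genes. For Igf1r, Igf2r, Insr, Irs1, Irs2 and Igfbp3, replicates A and B were the lowest of the 5 knockouts and 14, D and 15 the highest. The summed level of the 13 hypoxia-responsive genes was 3273, 4338, 5636, 5873 and 7068 CPM in Pde2A-/- replicates A, B, 14, D and 15, against 2916 to 3495 CPM in Pde2A+/+ hearts, so replicate A lay inside the wild-type range. Replicate D, low for H19, was not apart from 14 and 15 in these genes. The 10 macrophage genes summed to 237, 269, 314, 299 and 315 CPM in the same knockouts and to 119 to 189 CPM in wild types. The 8 endothelial genes summed to 1574, 1652, 1462, 1518 and 1483 CPM in Pde2A-/- replicates A, B, 14, D and 15. Wild types had 1201 to 1438 CPM of these endothelial genes, and A and B were the highest knockouts. The part of hypoxia, macrophages and endothelium in the levels of the 10 genes was not tested. Igf2, Igf1 and Igfbp5 did not share the order of the knockouts: Igf2 was lowest in replicate 15, Igf1 was highest in D and lowest in 15, and Igfbp5 was lowest in B.

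**Figure D3:**
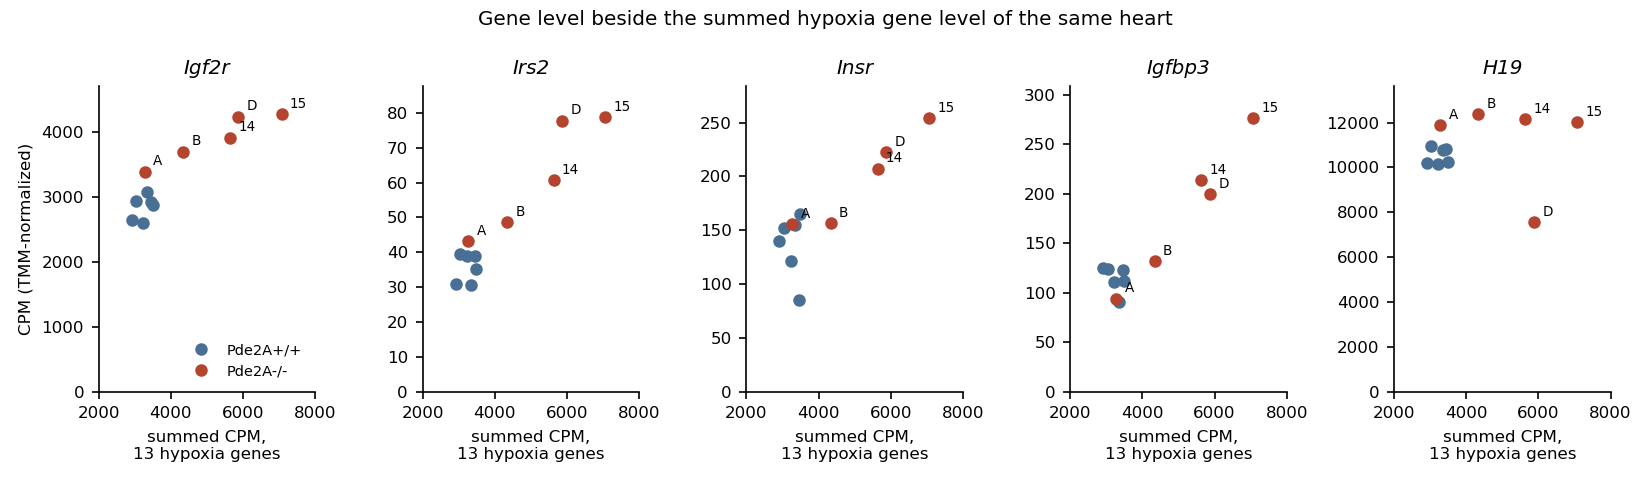
Level of Igf2r, Irs2, Insr, Igfbp3 and H19 (y axis, CPM after TMM normalization) beside the summed level of 13 hypoxia-responsive genes (x axis, CPM) in the same heart, for 6 Pde2A+/+ and 5 Pde2A-/- hearts, with knockout replicates named. Knockout hearts run from 3273 CPM (A) to 7068 CPM (15) on the x axis, and H19 is low in replicate D alone, at 7572 CPM.

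Levels were also set side by side per length, as reads per kilobase of exon not shared with another gene on the strand and library size (RPKM). In wild types the order was H19 (4427 ± 154, SD, n = 6), Igf2r (305 ± 19), Igfbp5 (179 ± 30), Igf2 (113 ± 12), Igfbp3 (36.5 ± 4.3), Irs1 (14.5 ± 1.4), Igf1 (11.2 ± 2.5), Igf1r (9.94 ± 0.49), Insr (9.92 ± 2.12) and Irs2 (5.64 ± 0.65). From H19 down to Irs1 the ranges of neighbours in this order did not overlap, and from Irs1 to Irs2 each overlapped the next. Among these last 5, Irs1 still lay wholly above Igf1r, Insr and Irs2, and Igf1 and Igf1r lay wholly above Irs2. In knockouts Igf2r stood at 419 ± 40, Igfbp3 at 58.5 ± 22.9, Insr at 14.5 ± 3.1 and Irs2 at 9.78 ± 2.58 RPKM (SD, n = 5). The RPKM of Igf2 used its 2127 bases outside Gm49394, so its place in the order rests on the annotation inferred for the counts. Those bases lie in several separate exons, and Igf2 has 4 RefSeq windows, so 1 transcript may not hold them all. The level of Igf2 per length may then be too low, and its place below Igf2r and Igfbp5 is not settled.

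The wider pathway was read from lists that had no gene in common with the 10. Beside the edgeR calls of each list stand those of all genes tested, 8.93% higher and 5.67% lower. Of 13 extracellular genes (insulins, the insulin receptor-related receptor, binding proteins and their regulators), 12 were tested, 2 were higher and 0 lower, with a median log2 fold change of 0.49, and Ins1 had no reads. At an unadjusted p under 0.05, 5 were higher and 0 lower (15.6% and 14.9% of all genes), and DESeq2 called 3 higher and 0 lower (16.4% and 13.8% of all genes). Both that rose are stanniocalcins, secreted inhibitors of the proteases that free IGFs from their binding proteins. Stc2 had 17.5, 26.8, 50.5, 51.5 and 63.9 CPM in Pde2A-/- replicates A, B, 14, D and 15 against 15.1 to 18.3 CPM in wild types, a log2 fold change of 1.38 ± 0.25 (SE), adjusted p 0.0042. Stc1 had 23.0, 24.4, 38.9, 41.0 and 47.1 CPM against 16.9 to 23.0 CPM, 0.83 ± 0.17, adjusted p 0.0077. In both, A was the lowest knockout and 15 the highest, as in the summed level of the hypoxia genes given above, whose part was not tested. The proteases themselves, Pappa (0.37, adjusted p 0.27) and Pappa2 (0.76, adjusted p 0.10), did not pass. Insulin message was near 0, with Ins2 at 0.11 CPM in knockouts and 0.06 CPM in wild types. Igfbp4, the most abundant carrier of the list, had 474 ± 29 CPM (SD, n = 5) in knockouts and 434 ± 45 CPM (SD, n = 6) in wild types, log2 fold change 0.13, adjusted p 0.25.

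Of 50 signal transducers downstream of the receptors, 9 were higher and 5 lower, and the median log2 fold change was -0.0024. The same test called 8.93% of all genes higher and 5.67% lower, and 14.6% and 11.4% of those with at least 30 CPM. Foxo3, a transcription factor that AKT keeps out of the nucleus, had 93.0, 109, 153, 184 and 220 CPM in Pde2A-/- replicates A, B, 14, D and 15 and 66.4 to 83.2 CPM in wild types, with every knockout above every wild type. Its log2 fold change was 1.0 ± 0.18 (SE), adjusted p 0.0039. Inppl1, a phosphatase that removes the lipid made by PI3K, had 247 to 313 CPM in knockouts and 183 to 205 CPM in wild types, 0.50 ± 0.06, adjusted p 0.00029, and it lies 0.31 Mb from Pde2a, near the targeted allele. Map2k1, the ERK kinase MEK1, had 108 to 167 CPM in knockouts and 98.3 to 119 CPM in wild types, 0.35 ± 0.10, adjusted p 0.029. This call was lost without knockout 14, D or 15 and without wild-type 11 or E, adjusted p 0.053 to 0.077. Shc1, an adaptor to the RAS cascade, had 109 to 142 CPM against 94.8 to 104 CPM, 0.33 ± 0.06, adjusted p 0.0044. The other 5 called higher were Pdpk1, Rictor, Foxo1, Sos2 and Mapk3. Those called lower included Akt1 and Rps6kb1, kinases of the AKT and mTOR arm, Eif4e, the cap-binding protein, and Hras, a RAS protein. The log2 fold changes of these lay between -0.29 and -0.23, so they were small. With 1 heart left out, 5 to 11 transducers were called higher and 1 to 8 lower. The count lower fell to 1 without knockout 14, D or 15 or wild-type 6 or 8, to 2 without wild-type 7 or H and to 3 without E, and rose to 8 without knockout B. The count higher was 5 without knockout D or 15.

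Of 13 genes known as targets of FOXO factors, 5 were higher (Gadd45a, Ccng2, Fbxo32, Pik3ip1 and Cdkn1b) and 0 lower, against 8.93% and 5.67% of all genes tested. The median log2 fold change was 0.38. At an unadjusted p under 0.05, 7 were higher and 1 lower, against 15.6% and 14.9% of all genes. DESeq2 called 6 higher and 0 lower, against 16.4% and 13.8%. Gadd45a, a growth arrest gene, had 11.1, 20.9, 16.4, 17.8 and 20.8 CPM in Pde2A-/- replicates A, B, 14, D and 15 against 4.20 to 5.52 CPM in wild types, a log2 fold change of 1.83 ± 0.14 (SE), adjusted p 6.8e-06. It was higher in every knockout and did not share the order of A and B below the others. Ccng2, the cyclin G2 gene, had 67.4, 65.5, 111, 146 and 195 CPM against 46.7 to 66.1 CPM, 1.04 ± 0.25, adjusted p 0.016. Fbxo32, a muscle ubiquitin ligase, had 6.54 to 15.7 CPM against 4.52 to 5.88 CPM, 1.0 ± 0.21, adjusted p 0.0095. Pik3ip1, an inhibitor of PI3K, had 33.5 to 90.6 CPM against 19.7 to 41.3 CPM, 0.85 ± 0.25, adjusted p 0.040. The Pik3ip1 call was lost without knockout 14, D or 15 and without wild-type 7, 11, 6, 8 or E, adjusted p 0.054 to 0.12. Several of these genes also respond to hypoxia, DNA damage or starvation. Txnip (-0.29, adjusted p 0.19) and Sesn3 (-0.25, adjusted p 0.11), 2 other genes of the list, had negative log2 fold changes and did not pass. The count of 5 fell to 3 without knockout D or 15 or wild-type 11, 6 or 8.

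**Figure D4:**
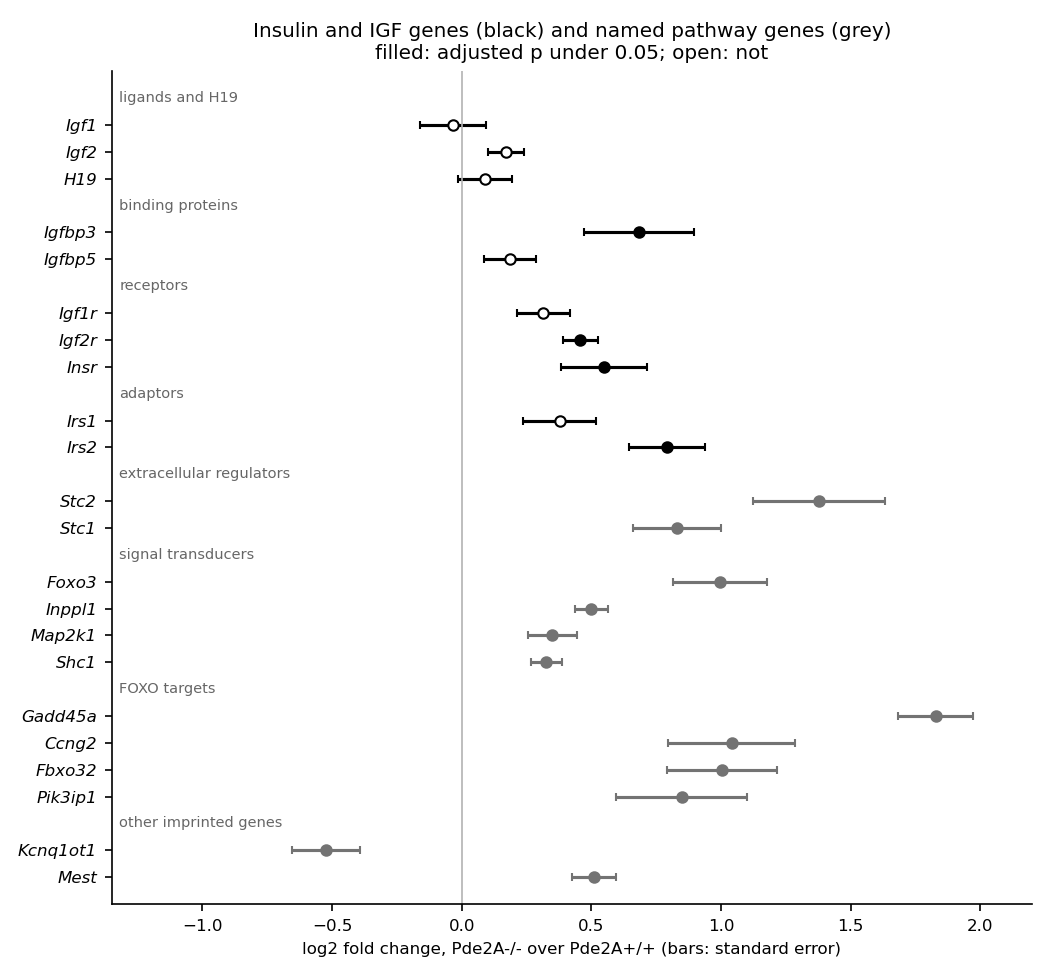
Log2 fold change of Pde2A-/- over Pde2A+/+ hearts (x axis) with its standard error, for the 10 genes in black and other genes in grey. The grey genes are, from each other list, up to 4 called genes with the largest change and a mean of at least 1 CPM. Further genes of these lists are not plotted, among them Akt1, Rps6kb1, Eif4e and Hras, which were called lower. Filled points passed an adjusted p of 0.05 and open points did not. Gadd45a and Stc2 lie farthest to the right, at 1.83 and 1.38, and Kcnq1ot1 is the one plotted gene called lower, at -0.52.

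The genes of the proteins that bind Igf2 mRNA, with Lin28a and Lin28b, gave 0 calls higher and 0 lower among 5 genes in edgeR. At an unadjusted p under 0.05, 1 was higher and 0 lower, against 15.6% and 14.9% of all genes. DESeq2 called 1 higher and 0 lower, against 16.4% and 13.8%. Of 20 other imprinted genes 19 were tested, 1 was higher and 1 lower, with a median of -0.02. Among all genes tested 8.93% were higher and 5.67% lower. Mest, a paternally expressed gene, had 2822, 3565, 3103, 3369 and 3020 CPM in Pde2A-/- replicates A, B, 14, D and 15 against 1910 to 2564 CPM in wild types, 0.51 ± 0.08 (SE), adjusted p 0.0020. Every knockout lay above every wild type. Kcnq1ot1, a noncoding RNA of the imprinted domain next to that of H19, had 7.66 to 11.9 CPM in knockouts against 11.8 to 18 CPM in wild types, and it fell by 0.52 on the log2 scale, SE 0.13, adjusted p 0.020. That call was lost without knockout D (-0.44, adjusted p 0.057) or 15 (-0.48, adjusted p 0.055). Cdkn1c, the growth inhibitor of the same domain, had 575 ± 103 CPM (SD, n = 5) in knockouts and 665 ± 101 CPM (SD, n = 6) in wild types, adjusted p 0.28. Igf2os, antisense to Igf2, had 43.5 ± 11.5 CPM in knockouts and 52.1 ± 6.3 CPM in wild types, adjusted p 0.27.

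Genes whose profile over the 11 hearts was most like that of a chosen gene were named by the smallest root mean square difference of centered log2 CPM among the 14023 genes that averaged 1 CPM or more. For H19 these were Erg, Sh2d3c and Fli1, at 0.10 each, where the spread of H19 about its own mean was 0.19. Erg and Fli1 encode transcription factors known in endothelium. The 8 endothelial genes summed to 1518 CPM in knockout replicate D, the heart low for H19, and to 1201 to 1438 CPM in wild types. The part of this heart in the likeness was not tested. For Igf2 they were Man1c1 (0.05), Sort1 (0.07) and the imprinted gene Peg10 (0.07), against a spread of 0.14. For Igf2r they were Tfpi (0.05), Itgb5 (0.06) and Noct (0.06), against 0.25. Irs2 had Hist1h4i (0.08), Gstm1 (0.10) and Cish (0.11), against 0.46, and Insr had Tcp11l2 (0.10) and Ndnf (0.14), against 0.41. These likenesses are descriptions over hearts that differ in genotype, and no test was made of them.

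**Figure D5:**
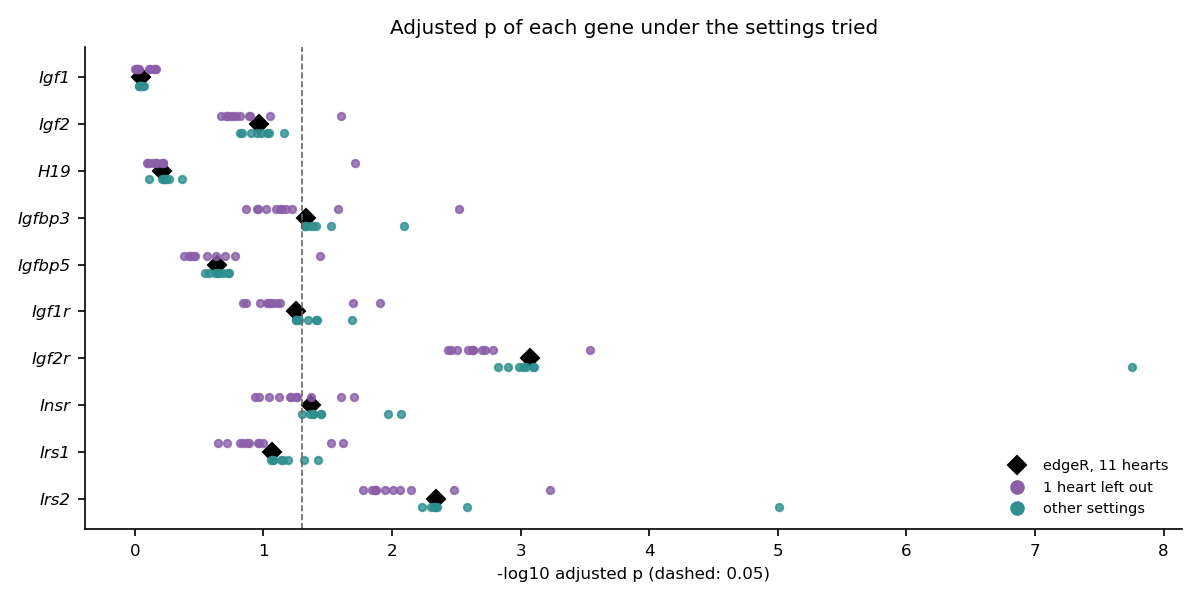
Adjusted p of each of the 10 genes on a -log10 scale (x axis, dashed line at 0.05) in edgeR with all 11 hearts (diamond), with 1 heart left out (purple) and with other settings (green). Igf2r and Irs2 stay right of the line in all settings plotted, Igf1 stays left of it, and the other 7 genes cross it in at least 1 setting.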

How the data were processed

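RNA was sequenced from 5 Pde2A-/- and 6 Pde2A+/+ whole hearts as stranded mRNA libraries read from 1 end. The authors mapped the reads with STAR to GRCm38 (mm10) and deposited raw counts per gene, whole numbers with no normalization, for either strand and for both. The column of the sense strand, the largest of the stranded pair, was used. Reads on exons of several genes enter no gene's count. Genotypes and replicate names were taken from the labels. Reads not counted on a gene were 19.6% to 22.4% per heart. The common biological coefficient of variation between hearts was 16.8%. The 10 genes had at least 1114 counts per library. Genes with few counts, such as Ins2 with 0 to 7 per library, also carry a large counting error.

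Names and positions came from GENCODE M21, which matched 55141 of 55487 identifiers. Genes that reached 10 counts in all were tested with edgeR 4.0.16 in R 4.3.3 (TMM, quasi-likelihood test, Benjamini-Hochberg over all genes tested, threshold 0.05). The SE is the log2 fold change divided by the root of the F statistic. CPM are counts scaled by TMM-normalized library sizes, and log2 CPM used a prior count of 2. The ratio of Igf2 to H19 was tested by an exact permutation test, whose smallest p is 0.0022. On simulated data with 200 genes changed among 21500, 130 were recovered at a log2 change of 0.5, with 7 wrong calls. At 1, 187 were recovered among 21502, with 6 wrong calls, and with no change 0 calls were made among 21504. Alternatives were DESeq2 1.42.0, its size factors, filterByExpr, no filter, both strands together, a table without 12 globin genes, naming style or Xist as a covariate, stricter thresholds, and each heart left out. The Xist covariate divided the hearts by whether Xist was above 1 CPM, as it was in 2 knockouts and 1 wild type. Python 3.11.15 was used with matplotlib 3.10.9, numpy 2.4.6 and pandas 2.3.3.

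The 10 genes and all lists were chosen with earlier results of these data known. From each other list the text names up to 4 called genes with the largest change and a mean of at least 1 CPM, the called neighbours within 200 kb of H19 and Igf2, and the 3 genes most like H19, Igf2 and each of the 3 others with the lowest adjusted p. Ins2, Igfbp1, Igfbp4, Pappa, Pappa2, Txnip, Sesn3, Cdkn1c, Igf2os, Trf and the genes that complete a count of called genes were named after their values were seen, and the background of genes with at least 30 CPM, the exon bases not shared and the promoter motifs were also chosen then. The values of 2 genes are left out of the text, while counts over genes include them.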

Additional observations from a re-analysis of the deposited data

Results flagged for a closer look

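In 48 groups of values, a genotype's hearts for a named gene, the highest or lowest heart was compared with the rest by the gap to its nearest neighbour as a share of the whole range. By chance about 1 in 20 groups stands out, and 2 did here. H19 in Pde2A-/- replicate D was the lowest of its genotype, 7572 CPM against 11877 to 12379 CPM in the other 4 knockouts, a gap of 0.916 of the range, above Dixon's critical value at the 95% level. The same heart had the highest summed level of fibroblast and valve mesenchyme genes, 12087 CPM against 7663 to 10440 CPM in the other knockouts, and the highest level of liver genes among them, 113 CPM against 42.8 to 74.8 CPM; the part of these in H19 was not tested. Inppl1 in Pde2A+/+ replicate 7 was the lowest of its genotype, 183 CPM against 200.3 to 205 CPM, a gap of 0.789 of the range, also above that value. This heart was also the one with 76.7 CPM of lung and thymus genes, whose part was not tested.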

How the results depend on the processing

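No paired analysis was possible because the replicate names of the genotypes share no number. The litters of the hearts are not given, so a shared litter could not be modelled. The p-values treat the hearts as independent, which was not tested. Of the 10 genes, 4 were called higher; this was 0 with a fold change of at least 2 required, 2 at an adjusted p under 0.01, and 2 to 6 with 1 heart left out (2 without knockout 14 or 15 or wild-type 7, 6 or E), and 0 were lower in all of these. Over all genes, 2160 were called higher, 1288 to 2887 with 1 heart left out, and 1372 lower, 414 to 2165 with 1 heart left out and 2354 in DESeq2, with the lowest counts without knockout D (1288 and 414). Transducers called lower, 5, were 11 in DESeq2, 9 with filterByExpr, 8 with Xist as a covariate and 1 to 8 with 1 heart left out; those called higher, 9, were 5 to 11. Of FOXO targets 3 to 7 were higher with 1 heart left out (5 with all), and 0 to 2 lower, 2 without knockout A and 1 with the naming style as a covariate. Of other extracellular genes 2 to 4 were higher, 4 without knockout A. Of other imprinted genes 0 to 2 were lower with 1 heart left out and 2 in DESeq2, against 1. Of the genes for Igf2 mRNA binding, 0 were called, against 1 in DESeq2, 1 with the naming style as a covariate and 1 without knockout A or B or wild-type 7. Of the neighbours of H19 and Igf2, 2 were called, and 1 with the naming style as a covariate; 1 to 2 with 1 heart left out. The difference in the log2 ratio of Igf2 to H19 was -0.042 to 0.17 with 1 heart left out and turned its sign without knockout D (-0.042, p = 0.57 by the exact permutation test). Igf1 ranged from -0.090 to 0.068 on the log2 scale and turned its sign without wild-type 11 (0.068) or E (0.01). The cause of these changes was not tested. Counts cannot separate Igf2 from Gm49394 over 3596 shared exon bases, and Pde2a gave no check of the genotypes.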

Other observations

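Reads on the strand opposite to the 10 genes made up 0.42% to 2.2% of the reads of both strands, and for none of them did every Pde2A-/- heart lie above every Pde2A+/+ heart. Igfbp1, a binding protein known from liver, had 3.91 CPM in Pde2A-/- replicate D and at most 0.38 CPM in each of the other 10 hearts, with a log2 fold change of 2.68 ± 1.25 (SE) and an adjusted p of 0.16 in edgeR. Of 12 liver genes, 1 was called in edgeR, Trf, which was higher. The log2 fold change was above 0 for 3 of the 12, with a median of -1.95. At an unadjusted p under 0.05, 1 liver gene was higher and 2 lower. The summed liver genes were 31.0 to 174 CPM in wild types, with replicate E the highest, and 42.8 to 113 CPM in knockouts, with replicate D the highest. In the other lists of cell markers, 1 of 10 epicardial genes was higher and 1 lower, 3 of 10 fibroblast and valve mesenchyme genes were higher, 2 of 8 endothelial genes were higher, 2 of 8 smooth muscle and pericyte genes were lower, 1 of 11 skeletal muscle genes was higher, and 5 of 11 erythroid genes were higher and 1 lower. Of 12 cardiomyocyte genes, 1 was higher (Nppa) and 3 lower (Tnni1, Myl4 and Ttn). Beside the counts of these lists, 8.93% of all genes tested were called higher and 5.67% lower. Among genes with at least 30 CPM the shares were 14.6% and 11.4%. No list was tested as a whole.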
